A study of Saccharomyces cerevisiae with 15 samples.

Results

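The transcriptome of yeast cells that overexpressed Psd1 was compared with that of cells that overexpressed the mitochondrial targeting sequence (MTS) of Mge1, in both cases without the transcription factor Pdr3. These were the 6 libraries labelled as Psd1 or MTS-Mge1 overexpression in the PDR3 deletion background, of 15 libraries in the series. All strains were W303 MATa. Cells of the Psd1 strain carried pdr3::HIS3 and a 2-micron plasmid with PSD1 under a GAL promoter and a URA3 marker (3 libraries), and are called Psd1 cells here. The cells they were set against carried the same pdr3::HIS3 allele and a 2-micron URA3 plasmid with residues 1 to 44 of Mge1 fused to mCherry under a GAL promoter (3 libraries), and are called MTS-Mge1 cells. The genotype label of the samples also names an empty 2-micron plasmid. Both constructs were induced with 1% galactose for 4 hours, in YPR medium by the labels, whereas the study's methods describe synthetic medium with raffinose. Each group was 1 strain, and nothing in the labels says whether replicates A, B and C were separate cultures, so p-values measure only the spread between these libraries. For comparison, the same 2 constructs were also expressed in cells with PDR3 (3 libraries each).

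Psd1 is a phosphatidylserine decarboxylase of the mitochondrial inner membrane. Its presequence is bipartite, with a targeting signal followed by a sorting signal, and proteins of this kind clog the import channel when they are made in excess. Mge1 is the nucleotide exchange factor of the matrix Hsp70, and its presequence alone carries no enzyme into mitochondria. Clogged import evokes several programmes in yeast: the mitoCPR, which needs Pdr3 and recruits Msp1 to the outer membrane through Cis1, a heat shock programme driven by Hsf1, proteasome gene expression through Rpn4, and changes in the mRNAs of respiratory and ribosomal proteins. Because both groups lacked Pdr3, the comparison shows the difference between the 2 constructs in cells that cannot mount the mitoCPR through it. The question was which mitochondrial, stress and metabolic genes then still differed. The series holds no pdr3Δ group with a control construct. Words such as higher, rose, lower and fell therefore give the level in Psd1 cells relative to MTS-Mge1 cells. Which of the constructs moved a gene cannot be told from this comparison. PSD1 and MGE1 themselves were left out, since reads of the constructs are counted on them.

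The labels matched the libraries. PDR3 had 0, 0 and 0 counts in Psd1 cells and 0, 1 and 1 counts in MTS-Mge1 cells. PSD1 stood at 15301, 17564 and 17555 CPM (read counts relative to the TMM-scaled size of the library) in Psd1 cells, against 248, 214 and 172 CPM in MTS-Mge1 cells. MGE1 stood at 329, 307 and 325 CPM in Psd1 cells and at 7607, 8268 and 8175 CPM in MTS-Mge1 cells. Of 8 genes of the galactose regulon 0 passed the test, with GAL1 between 7758 and 8521 CPM in Psd1 cells and between 7709.7 and 8216 CPM in MTS-Mge1 cells. The markers did differ: URA3 was at 9299, 9448 and 9497 CPM in Psd1 cells and at 14528, 13097 and 19112 CPM in MTS-Mge1 cells, and HIS3 differed by −0.39 ± 0.08 (log2 fold change ± SE), so both are among the lower genes below. Between 9593080 and 13958404 reads were counted on genes per library. Replicates 2 and 3 of MTS-Mge1 cells lay furthest from their group mean, with an SD of log2 deviations over genes of 0.245 and 0.266, against 0.154 to 0.2 for the other 4 libraries.

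With an adjusted p threshold of 0.05, 134 of 6159 genes tested were higher in Psd1 cells (2.18%) and 106 were lower (1.72%). Of these, 28 (0.455%) and 8 (0.13%) changed at least 2-fold. For each of these genes the libraries of the groups did not overlap (background over all genes 14.9% higher and 13.1% lower). Scaling by total library size alone gave 77 higher and 107 lower genes, and 20 and 10 at 2-fold. Of the 134, 22 belonged to a list of 34 heat shock protein genes and Hsf1 targets, which had a median log2 fold change of 0.98 and is not described further. The remaining 112 higher genes and the 106 lower genes form the subject of the text. The tests rested on all 6 libraries: without replicate 1 of MTS-Mge1 cells 1 gene was higher and 0 were lower, without replicate 1 of Psd1 cells 2 and 0, without replicate 2 of Psd1 cells 12 and 2, and without replicate 3 of Psd1 cells 8 and 0. Without replicate 2 or replicate 3 of MTS-Mge1 cells, the 2 libraries that stood apart, 126 or 157 genes were higher and 55 or 167 were lower. For each gene list described below, the lowest count of genes past the test with 1 library left out was 0 in either direction. With the replicate letter as a block, 537 genes were higher (8.72%) and 410 lower (6.66%), and 55 (0.893%) and 18 (0.292%) changed at least 2-fold.

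**Figure D1:**
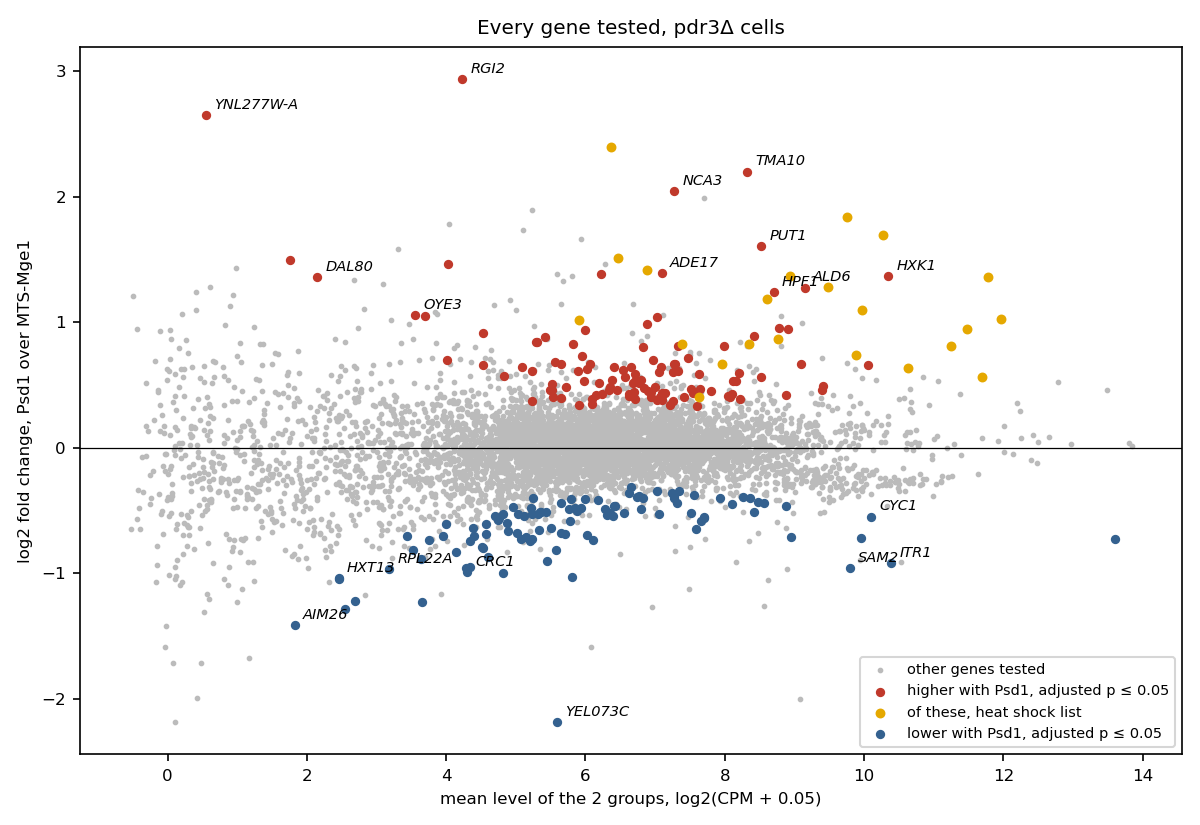
Log2 fold change of Psd1 over MTS-Mge1 cells in the pdr3Δ background (y axis) against the mean level of both groups, log2(CPM + 0.05) (x axis), 1 point for each of 6159 genes. Red points are the 112 higher genes outside the heat shock list, yellow points the 22 in it, and blue points the 106 lower genes, with RGI2 at 2.94 and YEL073C at −2.18 as the outermost genes that passed the test.

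Genes whose description names mitochondria were frequent among the higher genes. Among the protein-coding genes, 37 of 131 higher ones (28.2%) and 16 of 106 lower ones (15.1%) had a RefSeq description that names mitochondria, against 868 of 5780 tested (15%). Outside the heat shock list, 32 of 109 higher genes (29.4%) did. The word was matched in the text of the description and not by location, so that HSP82, ALD6, SAM2 and FRE5 were counted too. The directions differed by function: the genes of the mitochondrial ribosome that passed the test were all higher in Psd1 cells, and the subunit genes of the respiratory chain that passed were all lower.

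The mitochondrial ribosome translates the few proteins encoded in mitochondrial DNA, and its own proteins are made in the cytosol from nuclear genes and imported. Of its 72 measured genes 10 rose (13.9%, against 2.18% over all genes) and 0 fell. Positive log2 fold changes were seen in 70 of the 72 genes, and the list median was 0.23 against 0.01 over all genes tested. Their summed level was 14760, 13394 and 14817 CPM in Psd1 cells, against 12601, 11501 and 12505 CPM in MTS-Mge1 cells. The groups did not overlap in this sum, nor for 49 of the 72 genes upward (background 14.9%). The count depended on the fit, with 37 genes higher with the replicate block, 23 with DESeq2, 5 with total library size as scaling and between 0 and 10 when 1 library was left out.

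MRPS16, a protein of the small subunit, was at 215, 209 and 217 CPM in Psd1 cells and at 164, 149.9 and 148 CPM in MTS-Mge1 cells (log2 fold change 0.47 ± 0.08, adjusted p = 0.027). MRPS12, also of the small subunit, was at 309, 326 and 316 CPM in Psd1 cells and at 230.4, 248 and 228 CPM in MTS-Mge1 cells (0.43 ± 0.08, adjusted p = 0.0362). For MRPL28, a protein of the large subunit chosen after its values were seen, the levels were 164, 144 and 164 CPM in Psd1 cells and 121, 113 and 115 CPM in MTS-Mge1 cells (0.43 ± 0.08, adjusted p = 0.0372). In each of these genes the 3 Psd1 libraries lay above the 3 MTS-Mge1 libraries, with a difference of about the same size. The other 7 that rose were MRPL27, MRPL31, MRPS18, RSM19, IMG1, IMG2 and RTC6.

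Many nuclear mRNAs for mitochondrial proteins are bound by Puf3, an RNA-binding protein that reads a short motif after the stop codon. This motif, written as DNA TGTANATA (N, any base, sense strand only), was searched in the 200 bases after each stop codon of the R64 genome. It was found in 71 of the 72 mitochondrial ribosome genes (98.6%) and in 832 of all 5780 protein-coding genes tested (14.4%). It was also found in 44 of the 131 higher genes (33.6%), in 38 of the 109 outside the heat shock list (34.9%), and in 10 of the 106 lower genes (9.43%). Sites are shown for 3 mitochondrial ribosome genes, for the assembly factor genes COA3 and CBP4 and for COX8, a subunit gene that fell, with the motif in capitals.
MRPS16 (chrXVI:528881-528910, minus strand): tatgtatatgtTGTATATAtgttttacttg
MRPS16 (chrXVI:528840-528869, minus strand): tctatcagactTGTAAATAatacatctatg
MRPL28 (chrIV:1386537-1386566, plus strand): ctgtctcctgcTGTAAATAactgatgatca
MRPL28 (chrIV:1386593-1386622, plus strand): atataattataTGTACATAgacatataaag
MRPS12 (chrXIV:694269-694298, minus strand): atacaacctttTGTAAATAgcaatgaccat
COA3 (chrX:317041-317070, plus strand): ctctcctctttTGTAAATAgtttacctact
COA3 (chrX:317068-317097, plus strand): acttgcgtataTGTATATAtatatatatat
CBP4 (chrVII:845779-845808, minus strand): tatttgtacacTGTAAATAggtttaaaaat
COX8 (chrXII:909679-909708, minus strand): ggatagatgtgTGTACATAgcgtgcttggt
MRPS16, MRPL28 and COA3 each held 2 matches, and the match in COX8 was of the same form as those of the genes that rose. A match is a run of letters only, and binding by Puf3 was not measured.

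Genes with a mitochondrial description were then split by this motif. Of the 326 genes with a mitochondrial description and a match, 31 were higher (9.51%) and 1 was lower (0.307%), with a median log2 fold change of 0.14. The 542 genes with such a description and no match held 6 higher genes (1.11%) and 15 lower ones (2.77%), with a median of 0.01. So 31 of the 37 higher genes with such a description had the motif, and 1 of the 16 lower ones did, which was COX8. Without the mitochondrial ribosome and heat shock lists, 17 of 251 genes with such a description and a match were higher (6.77%) and 1 was lower (0.398%), with a median of 0.09. Of the 540 with such a description and no match, 5 were higher (0.926%) and 15 lower (2.78%), with a median of 0.01. Over all genes with a match outside those lists, 28 of 755 were higher (3.71%), with a median of 0.06. Among genes with a match but without such a description, 13 of 506 were higher (2.57%) and the median was 0.05.

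**Figure D2:**
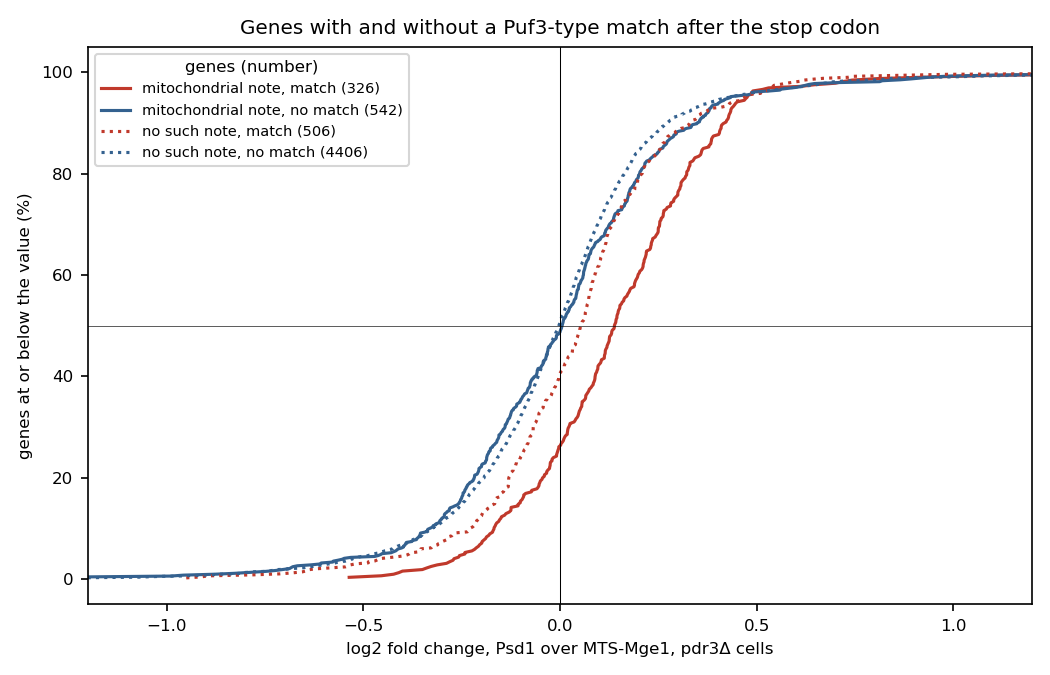
Share of genes (y axis, percent) with a log2 fold change of Psd1 over MTS-Mge1 cells at or below the value on the x axis, for genes with (red) and without (blue) a TGTANATA match in the 200 bases after the stop codon, split by whether the RefSeq description names mitochondria (solid) or not (dotted). The solid red curve, of 326 genes with such a description and a match, lies to the right with a median of 0.14. The 542 genes with such a description and no match have a median of 0.01.

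Some assembly factors of the respiratory complexes and other small mitochondrial proteins were among the higher genes with a match. They are given here because of their values and were not counted as a list. SDH7, which assembles succinate dehydrogenase, was at 104, 99.1 and 108 CPM in Psd1 cells and at 72.4, 64.3 and 61.6 CPM in MTS-Mge1 cells (0.65 ± 0.09, adjusted p = 0.0178). SDH5, which serves flavin insertion in the same enzyme, differed by 0.59 ± 0.13. CBP4, an assembly factor of the cytochrome bc1 complex, was at 206, 188 and 189.7 CPM in Psd1 cells and at 136, 126 and 119 CPM in MTS-Mge1 cells (0.61 ± 0.08, adjusted p = 0.0178). Of the factors of cytochrome c oxidase assembly, COA1 rose by 0.52 ± 0.07, COA3 by 0.40 ± 0.08, the copper protein SCO1 by 0.53 ± 0.11 and PET117 by 0.54 ± 0.11. Others did not pass the test, among them PET100 (0.41 ± 0.11), PET191 (0.29 ± 0.09), COX14 (0.36 ± 0.09), COX15 (0.33 ± 0.08), COX17 (0.31 ± 0.09), CMC1 (0.44 ± 0.11), SHY1 (0.17 ± 0.09), COX11 (0.07 ± 0.07) and COX19 (−0.39 ± 0.10). FMP10, of unknown function in mitochondria, differed by 0.72 ± 0.10 and MPM1, a mitochondrial protein of unknown function, by 0.70 ± 0.12. ATP10, which assembles the ATP synthase, fell by 0.61 ± 0.10 on the log2 scale.

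NCA3 is known for its part in the expression of mitochondrially encoded ATP synthase subunits, although its tagged protein was located in the vacuole by the RefSeq description. NCA3 was at 289, 247 and 211 CPM in Psd1 cells and at 63.8, 61.5 and 55.4 CPM in MTS-Mge1 cells (2.05 ± 0.13, adjusted p = 0.000645). The lowest Psd1 library was thus more than 3 times the highest MTS-Mge1 library, and NCA3 had the smallest adjusted p of the 6159 genes. No Puf3 match was found after its stop codon.

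The respiratory chain itself is built of subunits from nuclear and mitochondrial genes. Of 11 genes for complex III and cytochrome c, 11 had a negative log2 fold change (median −0.27) and 1 passed the test (9.09%). That was CYC1, the aerobic form of cytochrome c, at 839, 887 and 949.7 CPM in Psd1 cells, against 1344, 1259 and 1308 CPM in MTS-Mge1 cells (−0.55 ± 0.09, adjusted p = 0.0286). The summed level of these 11 genes was 4810, 5070 and 4973 CPM in Psd1 cells and 6224, 6293 and 6121 CPM in MTS-Mge1 cells, without overlap. Of the 9 nuclear genes of cytochrome c oxidase, 2 fell (22.2%, against 1.72% over all genes) and the median was −0.30. These were COX4, at 276, 303 and 273 CPM in Psd1 cells and 376, 379 and 367 CPM in MTS-Mge1 cells (−0.40 ± 0.08, adjusted p = 0.0447), and COX8, at 206, 211 and 211 CPM in Psd1 cells and 273, 267 and 290.2 CPM in MTS-Mge1 cells (−0.40 ± 0.08, adjusted p = 0.0389). Of 4 succinate dehydrogenase genes, 17 ATP synthase genes and 12 tricarboxylic acid cycle genes, 0 passed the test at medians of −0.27, −0.17 and −0.19, with SDH1 at −0.41 ± 0.10 (adjusted p = 0.0729) and ATP1 at −0.33 ± 0.09 (adjusted p = 0.0859). With the replicate block, 7 of the complex III genes, 6 of the cytochrome c oxidase genes, 3 of the ATP synthase genes and 4 of the cycle enzymes were lower. Poly(A)-selected libraries hold few reads of the mitochondrial genome, and only OLI1 of its 8 genes passed the filter on low counts, at under 1 CPM in each of the 6 libraries.

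Import genes (1 of 37 higher, 2.7%) and carriers (1 of 28 in each direction, 3.57%) passed the test at shares near those over all genes of 2.18% higher and 1.72% lower. Of the import genes, TIM8, a small chaperone of the intermembrane space, rose (0.43 ± 0.07, adjusted p = 0.0274). Among 24 genes for organelle shape and lipid transfer 2 rose (8.33%). These were MIC12 of the cristae junction complex (0.43 ± 0.09, adjusted p = 0.0485) and MDM35 (0.41 ± 0.09, adjusted p = 0.0494). Both lay near the threshold, and 0 of the 24 rose with RLE scaling or with the other count filters. Mdm35 works with the Ups proteins that carry phospholipids between the membranes. MDM35 was at 169, 145 and 155 CPM in Psd1 cells and at 119, 124 and 109 CPM in MTS-Mge1 cells. Of the inner membrane carriers, the pyruvate carrier subunit MPC2 rose (0.39 ± 0.08) and the carnitine carrier CRC1 fell, at 13.9, 15.7 and 9.71 CPM in Psd1 cells and 24.3, 26.7 and 27.4 CPM in MTS-Mge1 cells (−0.99 ± 0.18, adjusted p = 0.0352). Of 17 matrix chaperones and proteases, 5 rose (29.4%), all of them in the heat shock list, and 1 fell (5.88%). That was YME1, the protease that faces the intermembrane space (−0.39 ± 0.09). Of 13 genes for the extraction of stalled precursors at the outer membrane, 0 passed the test. Their median was −0.05, but single log2 fold changes ran from −0.18 to 1.10.

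**Figure D3:**
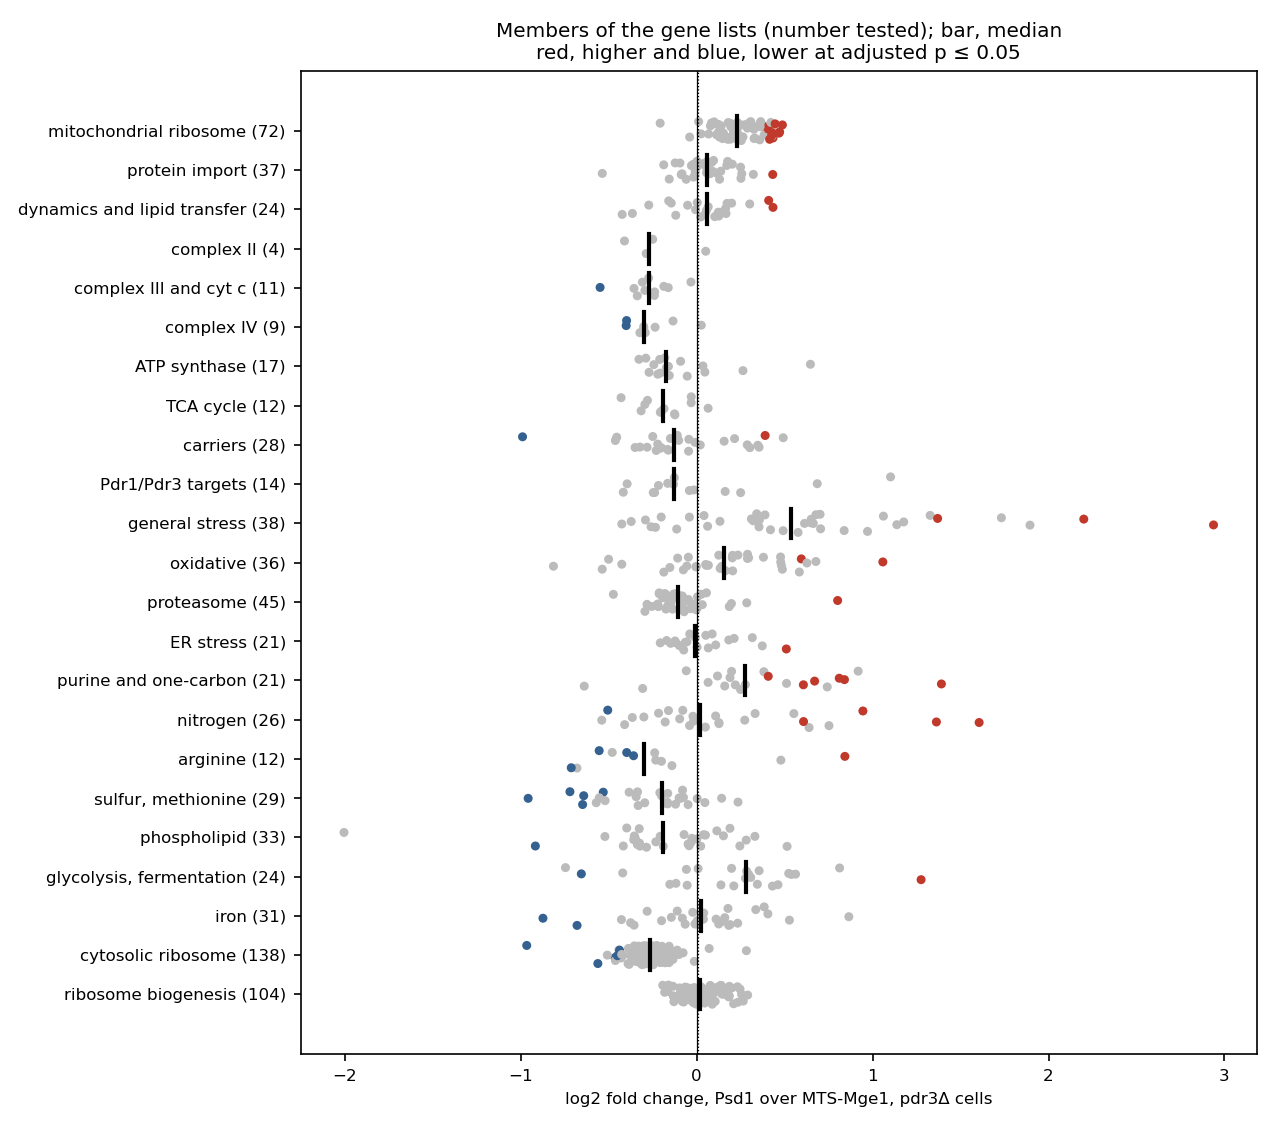
Log2 fold changes of Psd1 over MTS-Mge1 cells for the members of 23 gene lists (x axis), 1 point per gene, with the number of genes tested in brackets and a bar at the median. The mitochondrial ribosome has a median of 0.23 and 10 red points, whereas complex III and cytochrome c, at −0.27, and the cytosolic ribosome, at −0.26, lie to the left of the dotted median of all genes.

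Stress programmes outside the heat shock list were next. General stress genes depend on the transcription factors Msn2 and Msn4, which read the element AGGGG. This element was found on either strand in the 500 bases before the start codon of 34 of the 38 listed genes (89.5%) and of 34.4% of all genes. Among all genes that passed the test, 38.9% of the higher and 29.2% of the lower ones had it. Of the 38 genes 3 rose (7.89%, against 2.18% over all genes) and 0 fell. A positive sign was seen in 30, and the list median was 0.53. The highest fold among genes that passed was that of RGI2, a gene named for its induction during respiratory growth and 1 of the 4 listed genes without the element, at 34.1, 25.5 and 39.8 CPM in Psd1 cells and 4.64, 5.93 and 2.46 CPM in MTS-Mge1 cells (2.94 ± 0.30, adjusted p = 0.00827). TMA10, whose protein associates with ribosomes, was at 510.2, 502 and 560.4 CPM in Psd1 cells and 106, 171 and 65.6 CPM in MTS-Mge1 cells (2.20 ± 0.31, adjusted p = 0.0185). Hexokinase HXK1 was at 1812, 2076 and 1747 CPM in Psd1 cells and between 414 and 965 CPM in MTS-Mge1 cells (1.37 ± 0.28, adjusted p = 0.043). In both TMA10 and HXK1 the Psd1 libraries lay close together while replicate 3 of MTS-Mge1 cells was the lowest of all. The sum of the list was 6901, 7795 and 5772 CPM in Psd1 cells and 4359, 5612 and 2430 CPM in MTS-Mge1 cells, without overlap, and replicate 2 was the highest and replicate 3 the lowest in both groups. With the replicate block, 22 of the 38 genes were higher. Without replicate 2 of MTS-Mge1 cells 7 were higher, and without replicate 3 of MTS-Mge1 cells 3 were.

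Genes linked to protein quality control were next. RPN4, the transcription factor that drives proteasome genes, was at 133, 159 and 139 CPM in Psd1 cells and 78.7, 85.5 and 82.8 CPM in MTS-Mge1 cells (0.80 ± 0.09, adjusted p = 0.00975). The other 44 genes of the proteasome list did not pass the test, and its median was −0.11, with a summed level that overlapped between the groups (9669 to 9906 CPM in Psd1 cells, 9049 to 11093 CPM in MTS-Mge1 cells). ROQ1, whose protein redirects the ubiquitin ligase Ubr1 under stress, was at 19.8, 26.9 and 24.9 CPM in Psd1 cells and 5.95, 13.9 and 6.45 CPM in MTS-Mge1 cells (1.46 ± 0.31, adjusted p = 0.0481). Of 36 genes for oxidative defence 2 rose (5.56%, against 2.18% over all genes), both Old Yellow Enzymes, which are NADPH-dependent reductases. OYE3 was between 13.8 and 17.4 CPM in Psd1 cells and at 7.74, 8.35 and 6.62 CPM in MTS-Mge1 cells (1.06 ± 0.16, adjusted p = 0.0216), and OYE2 differed by 0.60 ± 0.13. YML131W, a medium-chain dehydrogenase family member of unknown function, differed by 1.38 ± 0.21 (adjusted p = 0.0216). The Yap1 motif TTACTAA was found in 17 of the 36 oxidative genes (47.2%) and in 11.8% of all genes on either strand of the 500 bases before the start codon. Of all genes that passed the test, 11.5% of the higher and 13.2% of the lower ones held it. OYE3 held it on both strands, and the 2 sites are shown for the gene of the list with the highest fold among those that passed.
OYE3 (chrXVI:227537-227623, minus strand): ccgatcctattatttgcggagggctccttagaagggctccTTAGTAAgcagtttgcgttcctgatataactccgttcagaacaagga
OYE3 (chrXVI:227473-227559, minus strand): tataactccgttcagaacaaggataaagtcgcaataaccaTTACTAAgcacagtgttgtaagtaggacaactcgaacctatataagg

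Pdr1 is the paralog of Pdr3 and shares targets with it. Of 14 genes of this kind, both regulators included, 0 passed the test here and the median was −0.13, against 7 lower genes and a median of −0.49 for the same constructs in PDR3 cells. Single log2 fold changes in pdr3Δ cells ran from −0.42 to 1.10, and with the replicate block 2 genes were higher and 2 lower. RSB1, a sphingoid base transporter, was at 27.7, 28.3 and 25.7 CPM in Psd1 cells and 34.0, 38.3 and 35.1 CPM in MTS-Mge1 cells (−0.40 ± 0.10, adjusted p = 0.0714). In PDR3 cells its log2 fold change was −0.93 ± 0.08, and the interaction was 0.52 ± 0.11 with an unadjusted p of 0.000368 and an adjusted p of 0.328 (edgeR). The difference between the genotypes thus did not pass the correction.

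Among metabolic genes, proline and nitrogen use came first. Proline is degraded in mitochondria by Put1, proline oxidase, and Put2, which makes glutamate, and both genes are controlled by Put3. PUT1 was at 445, 585 and 629.6 CPM in Psd1 cells and 186, 166 and 193 CPM in MTS-Mge1 cells (1.61 ± 0.14, adjusted p = 0.00559). PUT2 was at 578, 631 and 691 CPM in Psd1 cells and 346, 349 and 291 CPM in MTS-Mge1 cells (0.95 ± 0.11, adjusted p = 0.0131). Both pathway genes thus lay apart in all libraries, PUT1 by a wider margin. The Put3 motif, CGG and CCG with 10 bases between them, was searched in the 500 bases before the start codon. It was found before 4 of the 26 genes of the nitrogen list (15.4%) and 2.7% of all genes. The share was 7.63% among all higher and 5.66% among all lower genes that passed the test. Besides PUT1 and PUT2, the 4 were GDH2 (−0.10) and ASN1 (0.11), which did not pass. PUT1 held 2 matches and PUT2 held 1, shown with the whole motif in capitals.
PUT1 (chrXII:424838-424933, plus strand): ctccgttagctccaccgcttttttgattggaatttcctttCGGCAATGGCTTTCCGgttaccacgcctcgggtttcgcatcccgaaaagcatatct
PUT1 (chrXII:424866-424961, plus strand): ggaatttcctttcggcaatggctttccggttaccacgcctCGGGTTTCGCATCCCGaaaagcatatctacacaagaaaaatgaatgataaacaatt
PUT2 (chrVIII:181771-181866, plus strand): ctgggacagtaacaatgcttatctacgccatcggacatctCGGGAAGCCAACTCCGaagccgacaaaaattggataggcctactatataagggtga
Of the 26 genes of that list 4 rose (15.4%) and 1 fell (3.85%), against 2.18% and 1.72% over all genes. Besides PUT1 and PUT2 these were DAL80, UGA1 and DAL7. DAL80, a GATA-type repressor of nitrogen catabolism, was at 6.06, 5.68 and 7.26 CPM in Psd1 cells and 2.44, 2.82 and 2.12 CPM in MTS-Mge1 cells (1.36 ± 0.22, adjusted p = 0.0274). UGA1, which degrades GABA, rose by 0.61 ± 0.13, and the malate synthase gene DAL7 fell by 0.51 ± 0.09 on the log2 scale. Of 12 arginine genes, 4 synthesis genes fell (33.3%) and 1 gene rose (8.33%). That was CAR2, whose ornithine transaminase product leads to proline (0.84 ± 0.17, adjusted p = 0.043). CAR2 did not pass with all 5 groups in one fit (adjusted p = 0.187) or with total library size (adjusted p = 0.0524), and the arginase gene CAR1 did not pass (0.48, adjusted p = 0.237). ARG4, argininosuccinate lyase, was at 371, 399 and 360.1 CPM in Psd1 cells and 693, 684 and 475 CPM in MTS-Mge1 cells (−0.71 ± 0.15, adjusted p = 0.0472). With all 5 groups in one fit and with total library size, ARG4 did not pass (adjusted p = 0.119 and 0.056). UGA1 did not pass in these fits either (adjusted p = 0.1215 and 0.0785). The arginine list held 3 and 2 lower genes there. ARG56, ARG8 and ARG7, which act in the mitochondrial matrix, differed by −0.55 ± 0.12, −0.40 ± 0.08 and −0.36 ± 0.07. The median of the list was −0.30.

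Of 21 genes of purine and one-carbon synthesis 6 rose (28.6%, against 2.18% over all genes) and 0 fell, with a median of 0.28. ADE17, which catalyses the last steps to inosine monophosphate, was at 196, 227 and 169 CPM in Psd1 cells and 74.7, 106 and 45.7 CPM in MTS-Mge1 cells (1.39 ± 0.27, adjusted p = 0.0417). MTD1, a cytosolic methylenetetrahydrofolate dehydrogenase, was at 46.6, 55.8 and 49.2 CPM in Psd1 cells and 26.3, 32.4 and 26.1 CPM in MTS-Mge1 cells (0.84 ± 0.12, adjusted p = 0.0194). The others were ADE1 (0.67 ± 0.10), ADE12 (0.61 ± 0.13), ADE13 (0.41 ± 0.08) and GCV3, the lipoyl carrier of the mitochondrial glycine cleavage system (0.81 ± 0.15). The core TGACTC, read by Gcn4 and by Bas1, the regulator of these genes, was found before 14 of the 21 (66.7%) and before 12.9% of all genes. Among all genes that passed the test, 13.7% of the higher and 22.6% of the lower ones had it. Both strands were searched, and GAGTCA is the same core on the other strand. It is shown for the pair of genes described by library.
ADE17 (chrXIII:509542-509627, minus strand): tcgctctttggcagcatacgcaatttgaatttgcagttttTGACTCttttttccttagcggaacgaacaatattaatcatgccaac
ADE17 (chrXIII:509412-509497, minus strand): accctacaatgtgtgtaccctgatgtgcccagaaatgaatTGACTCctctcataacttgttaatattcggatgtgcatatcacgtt
MTD1 (chrXI:590075-590160, plus strand): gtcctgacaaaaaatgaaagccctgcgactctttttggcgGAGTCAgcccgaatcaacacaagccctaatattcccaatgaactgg
MTD1 (chrXI:590181-590266, plus strand): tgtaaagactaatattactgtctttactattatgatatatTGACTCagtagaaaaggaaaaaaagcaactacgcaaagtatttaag
The same core was found before all 12 arginine genes, of which 4 fell and 1 rose.

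In PDR3 cells these 6 genes also rose and by more: ADE17 by 2.47 ± 0.10 and MTD1 by 1.56 ± 0.13 on the log2 scale. All 6 interactions were negative, with ADE17 at −1.09 ± 0.31 (unadjusted p = 0.00438) and MTD1 at −0.73 ± 0.19 (unadjusted p = 0.00205), and with adjusted p of 0.729 or more by edgeR. The smaller difference in pdr3Δ cells thus did not pass the correction for any of them.

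Of 29 genes of sulfur assimilation and methionine synthesis 5 fell (17.2%, against 1.72% over all genes) and 0 rose. A negative sign was seen in 25 of 29, and the list median was −0.20. SAM2, which makes S-adenosylmethionine, the methyl donor of phosphatidylcholine synthesis, was at 619, 572 and 621 CPM in Psd1 cells and 1489.6, 1060.2 and 966 CPM in MTS-Mge1 cells (−0.96 ± 0.16, adjusted p = 0.03). MET6, methionine synthase, was at 817, 728 and 707 CPM in Psd1 cells and 1456, 1206 and 1043 CPM in MTS-Mge1 cells (−0.72 ± 0.14, adjusted p = 0.0385). In both, the Psd1 libraries were close to each other and replicate 1 of MTS-Mge1 cells was highest. MET13, which supplies the methyl group, differed by −0.65 ± 0.12, MET1 by −0.64 ± 0.09 and MET2 by −0.53 ± 0.11. The paralog SAM1, looked up after the values of SAM2, did not pass the test, at 545, 457 and 543 CPM in Psd1 cells and 531, 497 and 714 CPM in MTS-Mge1 cells. CACGTG, the site of Cbf1 in methionine gene promoters, was found before 19 of the 29 genes (65.5%), SAM2 and MET6 among them, and before 6.3% of all genes. Among all genes that passed the test, 6.87% of the higher and 9.43% of the lower ones had it.
SAM2 (chrIV:1454742-1454827, minus strand): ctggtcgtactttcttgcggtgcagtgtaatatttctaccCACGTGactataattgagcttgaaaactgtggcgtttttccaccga
MET6 (chrV:342617-342667, minus strand): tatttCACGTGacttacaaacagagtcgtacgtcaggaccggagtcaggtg

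Of 33 phospholipid genes 1 fell (3.03%, against 1.72% over all genes), the inositol transporter gene ITR1, and 0 rose, with a median of −0.19. Phosphatidylinositol synthesis uses inositol that is taken up by Itr1 or made by Ino1, and their genes are induced by Ino2 and Ino4 when inositol runs short. YEL073C, an uncharacterised gene that RefSeq describes as responding to inositol and choline, had the largest fall of all genes that passed, at 17.0, 19.8 and 15.4 CPM in Psd1 cells and between 44.1 and 99 CPM in MTS-Mge1 cells (−2.18 ± 0.30, adjusted p = 0.0178). ITR1 was at 909.8, 926 and 954 CPM in Psd1 cells and 2214, 1756 and 1293 CPM in MTS-Mge1 cells (−0.92 ± 0.18, adjusted p = 0.0417). INO1, named after its values were seen, was at 216, 214 and 220.5 CPM in Psd1 cells and 1404, 938 and 265 CPM in MTS-Mge1 cells, and with this spread did not pass the test (adjusted p = 0.0723). In all 3 genes the Psd1 libraries were nearly equal, the groups did not overlap, and replicate 1 of MTS-Mge1 cells was the highest and replicate 3 of MTS-Mge1 cells the nearest to Psd1 cells. Other members with the motif described next did not pass, among them CHO1 (−0.42, adjusted p = 0.221), CHO2 (−0.23, adjusted p = 0.399), OPI3 (−0.52, adjusted p = 0.136) and INO2 (−0.40, adjusted p = 0.135). With the replicate block 10 of the 33 were lower and INO1 passed (adjusted p = 0.015). With all 5 groups in one fit ITR1 did not pass (adjusted p = 0.0703), and 0 of the 33 were lower and 3 higher. The motif CATGTG, the core read by Ino2 and Ino4, was found before 15 of the 33 (45.5%) and 13% of all genes. Among all genes that passed the test, 7.63% of the higher and 18.9% of the lower ones had it. For YEL073C, ITR1 and INO1 1 site each is shown, where CACATG is the motif on the other strand.
YEL073C (chrV:7653-7703, minus strand): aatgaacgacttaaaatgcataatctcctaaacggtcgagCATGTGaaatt
ITR1 (chrIV:1445704-1445789, minus strand): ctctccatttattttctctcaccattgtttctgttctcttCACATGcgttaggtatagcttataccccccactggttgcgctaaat
INO1 (chrX:136066-136151, minus strand): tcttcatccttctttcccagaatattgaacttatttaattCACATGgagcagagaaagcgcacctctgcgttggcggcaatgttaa

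Of 24 genes of glycolysis and fermentation 1 rose and 1 fell (4.17% each, against 2.18% and 1.72% over all genes). ALD6, the cytosolic acetaldehyde dehydrogenase that makes acetate and NADPH, was at 959, 667 and 787 CPM in Psd1 cells and 448, 301 and 248 CPM in MTS-Mge1 cells (1.28 ± 0.23, adjusted p = 0.0344). ADH5, an alcohol dehydrogenase, fell by 0.66 ± 0.09 on the log2 scale. The list median was 0.28, and 13 were higher with the replicate block. GPP1, a glycerol-3-phosphatase, rose (0.66 ± 0.11, adjusted p = 0.0265). In the peroxisome, PEX11, which drives its division (0.65 ± 0.07), and the thiolase POT1 rose (0.70 ± 0.11), and the fatty acid transporter gene PXA2 fell (−0.54 ± 0.11). Trehalose and glycogen genes had 0 of 19 past the test and a median of 0.02. THI7, the thiamine transporter, was at 195, 199 and 134 CPM in Psd1 cells and 84.1, 92.9 and 79.5 CPM in MTS-Mge1 cells (1.04 ± 0.15, adjusted p = 0.0203). Of 31 iron genes 2 fell (6.45%, against 1.72% over all genes), the reductase genes FRE4 (−0.87 ± 0.12) and FRE5 (−0.68 ± 0.08).

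**Figure D4:**
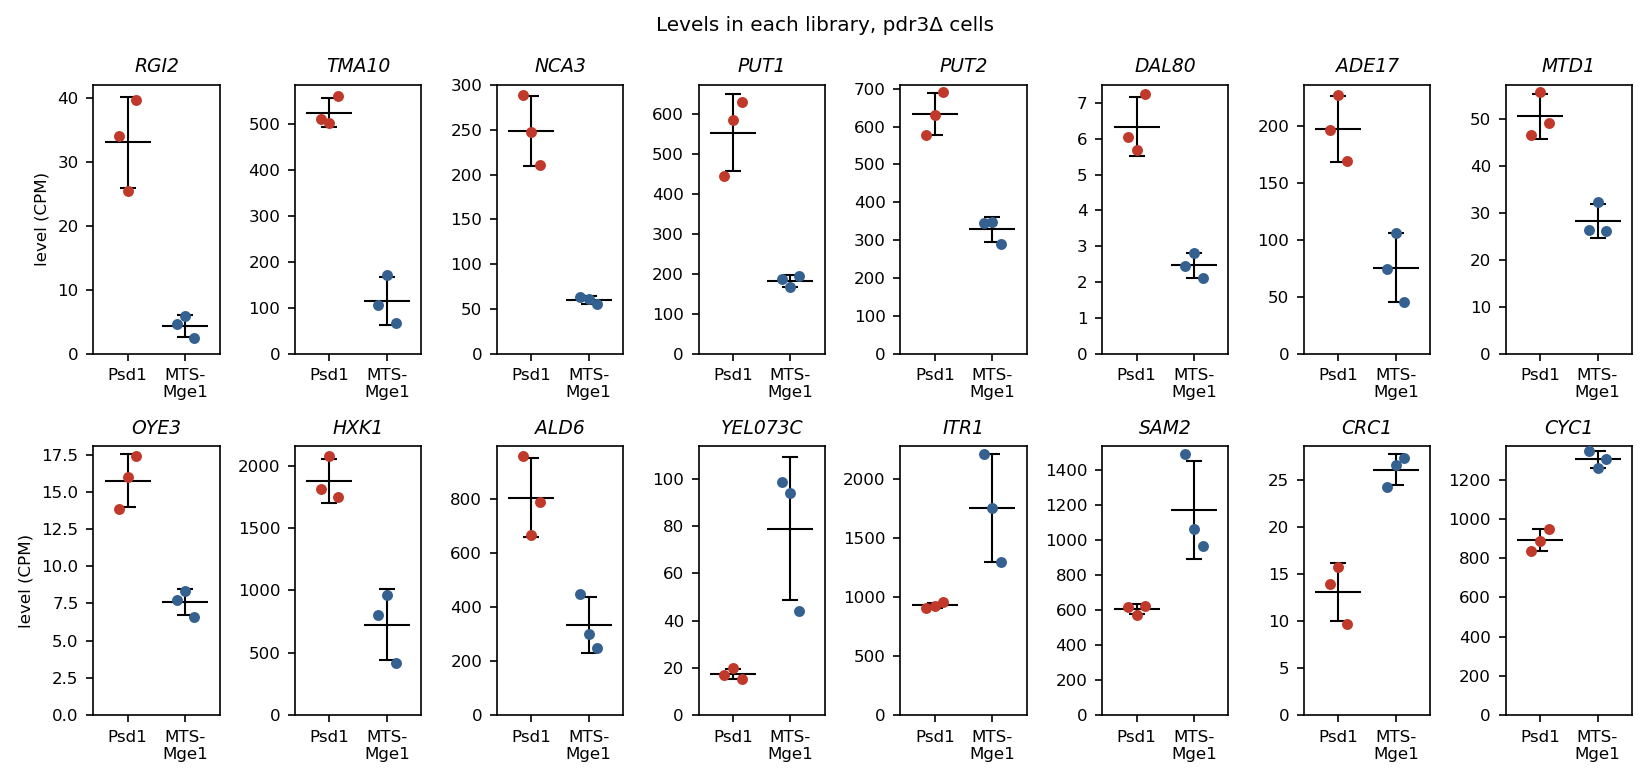
Levels (y axis, CPM, from 0) of 16 genes in the 3 Psd1 libraries (red, left) and the 3 MTS-Mge1 libraries (blue, right) in the pdr3Δ background, with the mean and SD in black. The groups do not overlap in any panel, and the MTS-Mge1 libraries spread more than the Psd1 libraries for TMA10, HXK1, YEL073C, ITR1 and SAM2.

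Of 138 cytosolic ribosomal protein genes 5 fell (3.62%, against 1.72% over all genes) and 0 rose. A negative sign was seen in 136, and the median was −0.26. The 5 were RPL22A, at 5.37, 6.68 and 6.25 CPM in Psd1 cells and between 11.1 and 12.7 CPM in MTS-Mge1 cells (−0.97 ± 0.16, adjusted p = 0.0286), RPL22B (−0.56 ± 0.10), RPL41A (−0.46 ± 0.09), RPS29A (−0.45 ± 0.10) and RPS14B (−0.44 ± 0.09). The largest fold of the list, that of RPL22A, thus rests on few reads, and why its level was so low was not tested. RPL41A shares 55% of its 59-base stretches with another place in the genome, so reads of it and its copy may have been split. The groups did not overlap for 55 of the 138 genes (background 13.1% for lower genes), and the sum of the list overlapped, at 95133 to 109405 CPM in Psd1 cells and 108273 to 143105 CPM in MTS-Mge1 cells. With the replicate block 58 were lower. The 104 ribosome biogenesis genes had 0 past the test and a median of 0.02.

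Many of the lower genes lay near chromosome ends. Of the 106 lower genes, 26 lay within 30000 bases of a chromosome end (24.5%), against 353 of 5780 protein-coding genes (6.11%) and 8 of the 131 higher genes (6.11%). The distance was chosen after the lower genes had been seen. The 353 genes near an end had a median log2 fold change of −0.14, against 0.02 for the other 5427, and −0.10 in PDR3 cells. The 26 lower ones included the maltose and polyol genes MAL11, MAL31, MPH2, MPH3, SOR1 and SOR2 and 3 helicase genes of the Y′ elements, YEL077C, YIL177C and YJL225C. For 14 of the 26, over 20% of the 59-base stretches occur elsewhere in the genome, so reads of these gene families may have been split between copies. Median fold changes by nuclear chromosome lay between −0.01 for chromosome VIII and 0.04 for chromosome IX, and no chromosome stood apart as a whole.

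The remaining genes that changed at least 2-fold had mixed or unknown functions. On the higher side these were HPF1, a cell wall mannoprotein (1.24 ± 0.17), LSR1, the U2 spliceosomal RNA (1.05 ± 0.19), and YNL277W-A (2.65 ± 0.46) and YOR225W (1.49 ± 0.31), of unknown function and under 6 CPM in every library. LSR1 and YOR225W matched no RefSeq locus tag, and how LSR1 was captured in poly(A)-selected libraries was not tested. On the lower side, AIM26 (−1.41 ± 0.31), SLZ1 (−1.28 ± 0.26), YPR014C (−1.22 ± 0.20), YCR101C (−1.04 ± 0.19) and the hexose transporter HXT13 (−1.04 ± 0.19) averaged under 10 CPM in both groups. EMA17, which RefSeq describes as aiding the targeting of mitochondrial membrane precursors to the import machinery, was at 8.39, 6.75 and 7.26 CPM in Psd1 cells and between 14 and 20.2 CPM in MTS-Mge1 cells, a difference of −1.23 ± 0.18. FLO11, the adhesin of invasive growth, was at 39.2, 31.6 and 40.3 CPM in Psd1 cells and 78.4, 64.7 and 82.6 CPM in MTS-Mge1 cells (−1.03 ± 0.13, adjusted p = 0.0163). HPF1 and LSR1 were named after their values were seen.

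Finally, the same contrast was read in cells with PDR3, whose 6 libraries are not shared with the contrast above. There, 210 of 6155 genes were higher (3.41%) and 89 lower (1.45%), and 50 (0.812%) and 8 (0.13%) changed at least 2-fold. All 134 genes that were higher in pdr3Δ cells had the same sign in PDR3 cells, where 95 passed the test. Of the 106 lower genes, every one but HXT13 had the same sign, and 26 passed the test. Over all genes the sign was the same for 4782 of 6116. The 72 mitochondrial ribosome genes had a median of 0.34 in PDR3 cells with 28 higher, and complex III had a median of −0.29 with 2 lower. NCA3 differed by 1.99 ± 0.14 and PUT1 by 1.32 ± 0.21 there, close to the values without PDR3, whereas the SE of YEL073C, at −1.69 ± 0.53, was wider. The interaction of construct and genotype passed the test for 1 of 6236 genes (0.016%), SFT2. At an unadjusted p under 0.05, 83 genes had a positive and 98 a negative interaction (1.33% and 1.57%). A gene that passed the test in one genotype only is therefore not shown to differ between them.

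**Figure D5:**
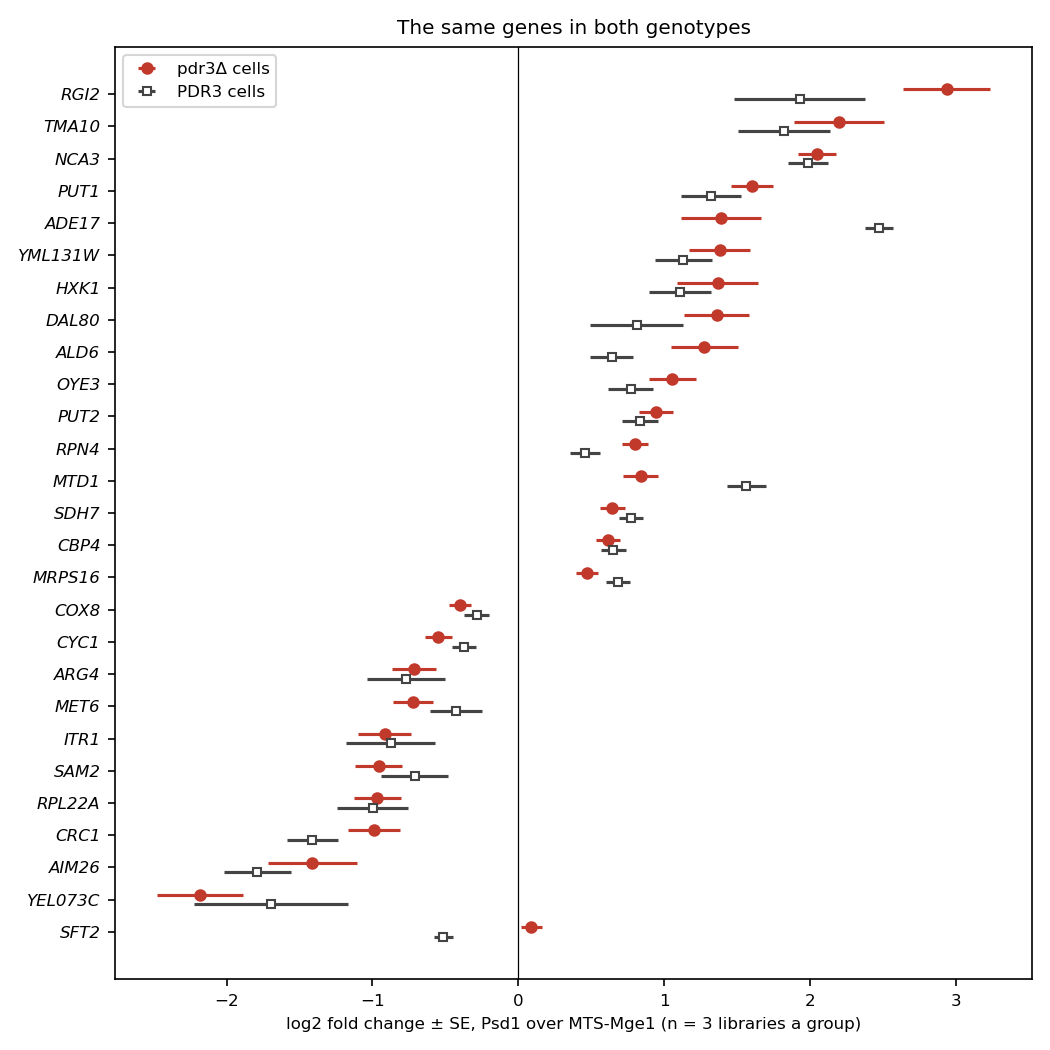
Log2 fold change ± SE of Psd1 over MTS-Mge1 cells for 27 genes (rows) in pdr3Δ cells (red circles) and in PDR3 cells (open squares), with 3 libraries a group. Every gene but SFT2 has the same sign in both genotypes, and ADE17 and MTD1 lie further right in PDR3 cells, at 2.47 and 1.56.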

How the data were processed

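Poly(A) RNA of galactose-induced W303 cells was sequenced with a stranded kit. Per the study's methods, the authors aligned paired reads to R64-1-1 with DRAGEN and counted reads per gene with featureCounts, and they deposited raw counts. Strand and multimapping settings are not given in the sources used here.

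Genes with low counts were removed with filterByExpr, which left 6159 of 7127 after PSD1 and MGE1 were set aside. Counts were scaled by TMM and tested with the quasi-likelihood F-test of edgeR 4.0.16 in R 4.3.3, with Benjamini-Hochberg adjustment over all genes. All adjusted p-values in the text come from it unless DESeq2 is named. The SE is the log2 fold change divided by the square root of F. CPM levels used TMM sizes of all 15 libraries. Alternatives were DESeq2 1.42.0, RLE or total-size scaling, other count filters, a single fit over the 5 groups, glmTreat at 2-fold, a replicate block and leaving out each library. An exact permutation test of 3 against 3 libraries cannot give a p below 0.1 and was not used.

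Named genes were those past both thresholds, up to 4 members per list with the smallest adjusted p (up to 2 where none passed) and label checks. The genes, lists and comparison were chosen with earlier results of these data known, and the assembly factors and some members named to complete a list lie outside that rule. Sequences and descriptions come from RefSeq R64, matched by locus tag for 6047 genes. Motifs were searched in 500 bases before the start codon on both strands or 200 bases after the stop codon. The fits were also run on simulated counts with known changes. That run checked the sign and recovery of those changes, not false calls in these libraries.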

Additional observations from a re-analysis of the deposited data

Results flagged for a closer look

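SFT2, a Golgi membrane protein gene, was the gene whose response to the constructs differed between the genotypes. It was at 77.8, 78.5 and 75 CPM in Psd1 cells and at 70.2, 75 and 72 CPM in MTS-Mge1 cells without PDR3, a difference that did not pass the test (log2 fold change 0.09 ± 0.07, adjusted p = 0.511). In cells with PDR3 the log2 fold change was −0.51 ± 0.07 (adjusted p = 0.00811). The interaction was 0.595 on the log2 scale (edgeR, adjusted p = 0.0453), and the signs of the contrast were opposite in the genotypes. The adjusted p lay between 7.32e-08 with DESeq2 and 0.274 without replicate 2 of the Psd1 cells with PDR3. With total library size as scaling it was 0.176, and of the 12 fits that left out a library, the one without replicate 2 of MTS-Mge1 cells lacking PDR3 passed, at 0.0262.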

How the results depend on the processing

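All 116 named genes with an adjusted p of 0.05 or less kept their direction under every alternative run for single genes. Because the libraries of the groups did not overlap for these genes, leaving out a library could hardly reverse it, so this is no separate support. All 116 passed with DESeq2 and with the replicate block. Of these, 74 passed under every alternative that left no library out, the test against a 2-fold change aside, which was run for the counts only. Counts of higher and lower genes depended more on the setting. They were 301 and 270 with DESeq2, 262 and 199 with all 5 groups in one fit, and 77 and 107 with total library size. At least 2-fold, 39 and 16 genes passed with DESeq2, 30 and 13 with all 5 groups, and 1 and 0 in a test against a 2-fold change. The interaction passed for 12 genes with DESeq2 and 0 with total library size. With 1 library left out, 1 to 157 genes were higher, 0 to 167 lower, 1 to 49 and 0 to 13 at 2-fold, and 0 to 4 had an interaction. The cause was not tested.

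With the replicate block, 537 and 410 genes passed, 55 and 18 at 2-fold, and 8 had an interaction. The block with DESeq2, added after seeing the data, gave 413 and 375, and 52 and 16 at 2-fold. Deviations from the group means of same-numbered libraries correlated at 0.0904, 0.471 and 0.41 over genes. Between groups, libraries of unlike number correlated at −0.447 to 0.0231. The main fit did not take the numbers as pairs, although every library correlated best with the one of its own number. The log2 fold change of GAL1, at 0.03 without passing the test, changed sign with total library size (−0.007713) and ranged over −0.003749 to 0.06381 with a library left out. Genes under 10 CPM rest on few reads.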
